A study of Mus musculus with 14 samples.

Results

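The vessel miRNAs miR-126, miR-221 and miR-222 were followed in a quantitative PCR screen of mouse plasma. They were chosen by name alone, as every named well whose miRNA is miR-126, miR-221 or miR-222 once the species prefix and the arm are left off. This gave 4 assays of 389 named miRNAs, namely mmu-miR-126-3p, mmu-miR-126-5p, mmu-miR-221 and mmu-miR-222 (mmu for mouse, left off below), each with 1 well. miR-126-5p sits on panel II of the pair of Exiqon panels and the other members on panel I. The screen compared 6 wild-type control mice with 8 mice of a genetically engineered mouse model (GEMM) with osteosarcoma (OS), a bone tumor, 1 plasma sample per mouse. The methods give 14 GEMM OS mice, of which 8 are analysed here. By the methods, wild-type mice were littermates of the genotype p53+/+;Cre+/-, so the controls may carry Cre as well. The GEMM mice were p53F/+;Cre+ or p53F/F;Cre+, with Cre driven in osteoblasts by a Col-α1(I) promoter and Trp53 flanked by LoxP sites. Which OS mouse had which genotype, and the age of each mouse, is not given by the labels, which state a median onset of 54 weeks for F/+ and 38 weeks for F/F mice. Blood was taken from the GEMM mice once a tumor had formed, so genotype and tumor cannot be told apart in the group difference.

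MicroRNAs are short RNAs that pair through their seed, the bases near the 5′ end, with messenger RNAs and lower their output. miR-126 is cut from an intron of Egfl7, a gene of endothelial cells, and both arms of its hairpin are used. Its 3p arm restrains Spred1 and Pik3r2, inhibitors of signaling from vascular growth factors, and Vcam1, an adhesion molecule. Its 5p arm targets Dlk1 in endothelial cells. miR-221 and miR-222 come from 1 transcript, and restrain Kit, the receptor for stem cell factor, and Cdkn1b, an inhibitor of the cell cycle. All are found in endothelial cells, and miR-126, miR-221 and miR-222 are also carried by platelets, so their level in plasma does not name a source.

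The mature sequences are shown because they set which members could act on the same targets. They are from RefSeq on GRCm38.p6, 5′ to 3′, with the seed (bases 2 to 8) in capitals. The wells are named without an arm for miR-221 and miR-222, which in the older nomenclature stands for the 3p arm, and 3 of the 4 members matched a mature entry. The letters of the PCR primers were not used here.
miR-126a-3p: uCGUACCGugaguaauaaugcg
miR-221-3p: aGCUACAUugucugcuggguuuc
miR-222-3p: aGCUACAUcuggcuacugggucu
miR-221-3p and miR-222-3p share their first 8 bases, seed included, and 11 of 23 positions counted from the 5′ end. Of 1738 mature miRNAs in the table, 3 carry this seed, the other being miR-1928, for which no well was named. The seed of miR-126a-3p occurs in 1 mature miRNA of the table, miR-126a-3p itself. Thus miR-221 and miR-222 form 1 seed family and miR-126-3p stands apart from it.

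miR-126a-3p lies at chr2:26591402-26591423 on the plus strand, inside the bounds of Egfl7 (chr2:26581083-26592682). The hairpin of Mir126a (chr2:26591357-26591429) is printed below with miR-126a-3p in capitals, since both measured arms come from it. The hairpin of Mir126b lies within the same span on the minus strand (chr2:26591363-26591420).
Mir126a hairpin: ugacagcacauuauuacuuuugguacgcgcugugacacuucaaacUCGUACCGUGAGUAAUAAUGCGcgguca
miR-221-3p (chrX:19146307-19146329) and miR-222-3p (chrX:19146901-19146923) lie on the minus strand, and 504 bases separate their hairpins. The listed coordinates give no exon or intron, so the intron of Egfl7 is background knowledge.

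All 4 members were measured in every mouse, far below the background limit of a quantification cycle (Cq) of 37. A Cq is the cycle at which a well crosses a set signal, on a log2 scale on which a lower value stands for a more abundant miRNA. miR-126-3p had the lowest Cq of the members, at 25.6 ± 0.834 in wild-type mice (SD, n = 6) against 26.6 ± 0.609 in mice with OS (SD, n = 8). It ranked 19 to 39 among the 276 miRNAs measured in every mouse, counted from the lowest Cq. miR-222 followed with ranks of 28 to 70, then miR-221 with 47 to 74 and miR-126-5p with 67 to 117. A rank by Cq also depends on the efficiency of each assay, so it orders assays rather than molecules. miR-126-3p came before miR-222 in 14 of 14 mice. The gap between them was 1.13 ± 0.549 cycles in wild-type mice (SD, n = 6) against 0.951 ± 0.757 cycles with OS (SD, n = 8). miR-222 came before miR-221 in 6 of 6 controls and 7 of 8 mice with OS. In OS this gap was 0.451 ± 0.813 cycles (SD, n = 8). The exception was OS replicate 10, where miR-221 came before miR-222 by 1.38 cycles, which widened the spread.

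To compare mice, each Cq was subtracted from the mean Cq of all retained miRNAs of the same mouse. This normalized level is on the log2 scale and is higher for a more abundant miRNA. The members varied little from mouse to mouse. The SD within groups was 0.363 for miR-126-3p, 0.416 for miR-221, 0.450 for miR-126-5p and 0.491 for miR-222, against a median of 0.819 over the 276 miRNAs. By this measure miR-126-3p was the 7th steadiest of the 276, and the others were at places 18, 22 and 30.

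The comparison of OS with control plasma asks whether the level of a miRNA differs with disease. No member passed an adjusted p of 0.05 by limma, which fits all 388 retained miRNAs together, while 12.6% of the 388 passed (6.19% higher and 6.44% lower). At an unadjusted p of 0.05, both arms of miR-126 passed by limma, against 30.7% of all miRNAs tested. Both arms were lower in OS at that threshold, as were 14.7% of all. No member had groups without overlap, which 2.84% of the 388 had. The methods' t-test with Benjamini-Hochberg adjustment also called no member. Amounts in plasma cannot tell fewer releasing cells from less miRNA released by each.

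The normalized level of miR-126-3p ran from 5.79 to 6.96 in controls, with a median of 5.97, and from 5.17 to 5.97 in OS, with a median of 5.42. Of the 8 mice with OS, 7 lay below every control, and OS replicate 10 lay within the control range. The means were 6.12 ± 0.44 (SD, n = 6) and 5.48 ± 0.30 (SD, n = 8), a log2 difference of -0.63 (standard error 0.30, 95% confidence interval -1.25 to -0.01, limma adjusted p = 0.154), or 1.55-fold. A two-sided exact permutation test, with 3003 ways to divide the mice, gave p = 0.00466, and p = 0.0603 when adjusted over all 388 miRNAs, with 27.6% of the 388 at an unadjusted p of 0.05. With each panel on its own mean the difference was -0.39.

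For miR-126-5p the normalized level ran from 2.38 to 3.60 in controls, with a median of 2.76, and from 1.47 to 2.83 in OS, with a median of 2.07. Of the 8 mice with OS, 6 lay below every control, and OS replicates 15 and 18 lay within the control range. The highest of the 6, OS replicate 17 at 2.371, lay only just below the lowest control at 2.378. The log2 difference was -0.73 (standard error 0.32, 95% confidence interval -1.40 to -0.06, limma adjusted p = 0.131), or 1.66-fold. The exact permutation test gave p = 0.0103, and p = 0.0888 when adjusted over all 388. With each panel centred on its own mean, its difference was -1.17 (limma adjusted p = 0.0378). Mean Cq differed between OS and control mice by 0.680 cycles over the 251 miRNAs retained on panel I and by -0.0061 cycles over the 140 on panel II. Over both panels together it differed by 0.435 cycles. The Cq of miR-126-5p is the same under both scalings, so the move from -0.73 to -1.17 is the change of the mean subtracted from. What lies behind the gap between the panels was not tested.

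The members of the seed family differed in the sign of their estimates. miR-221 ran from 3.11 to 4.03 in controls, with a median of 3.73, and from 3.44 to 4.90 in OS, with a median of 3.95. OS replicates 10, 11 and 17 lay above every control and the other 5 mice with OS lay within the control range. The log2 difference was 0.43 (standard error 0.31, 95% confidence interval -0.21 to 1.08, limma adjusted p = 0.354; exact permutation p = 0.0753), and -0.00125 with unscaled Cq. miR-222 ran from 4.35 to 5.74 in controls, with a median of 4.99, and from 3.52 to 5.07 in OS, with a median of 4.62. OS replicates 10 and 12 lay below every control. The log2 difference was -0.45 (standard error 0.33, 95% confidence interval -1.14 to 0.24, limma adjusted p = 0.369; exact permutation p = 0.113). The intervals of both take in 0, and reach 1.08 for miR-221 and -1.14 for miR-222. With each panel on its own mean, miR-221 differed by 0.68, with an interval of 0.0065 to 1.35 (limma adjusted p = 0.158; exact permutation p = 0.0160), and miR-222 by -0.21. Over 24 alternatives the exact permutation p was under 0.05 in 6 for miR-221, the lowest being 0.00899 when scaled to the median, and in 0 for miR-222.

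**Figure D1:**
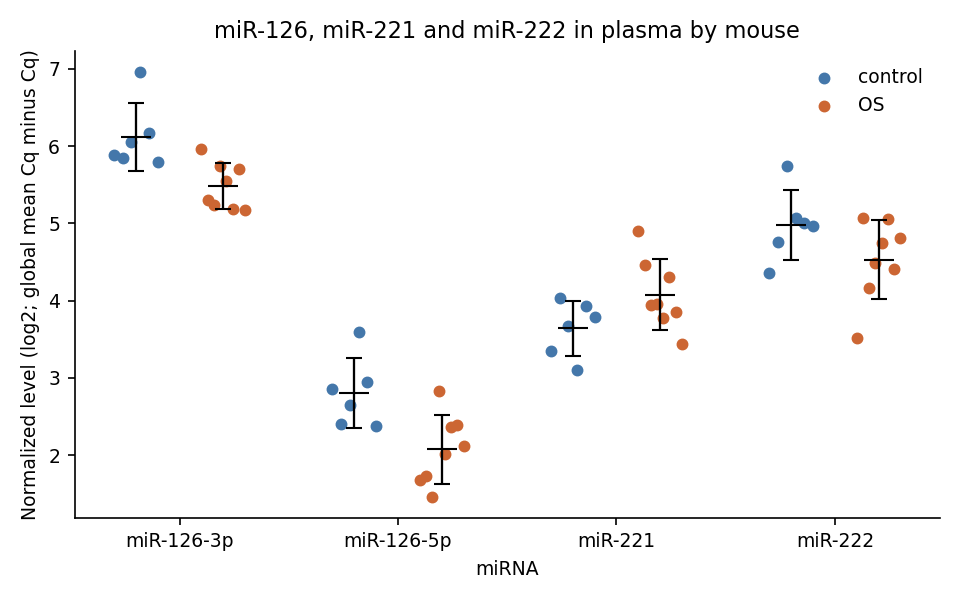
Normalized plasma level (log2, vertical axis) of each member (horizontal axis) in 6 control mice and 8 mice with OS. Points are mice, in order of replicate number from left to right within a group, and bars are the mean ± SD; miR-126-3p has 7 of 8 mice with OS below every control.

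The scaling moved the size of each difference. Without any scaling, the median log2 difference over all miRNAs was -0.45, and the members lay at -1.07 for miR-126-3p, -1.17 for miR-126-5p, -0.00125 for miR-221 and -0.89 for miR-222. Relative to that median miR-221 was at 0.45, much as the 0.44 under the global mean. With each mouse scaled to its median Cq over the miRNAs found in all mice, which moved the median of all miRNAs to 0.14, miR-221 was at 0.57 and miR-126-3p at -0.49.

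**Figure D2:**
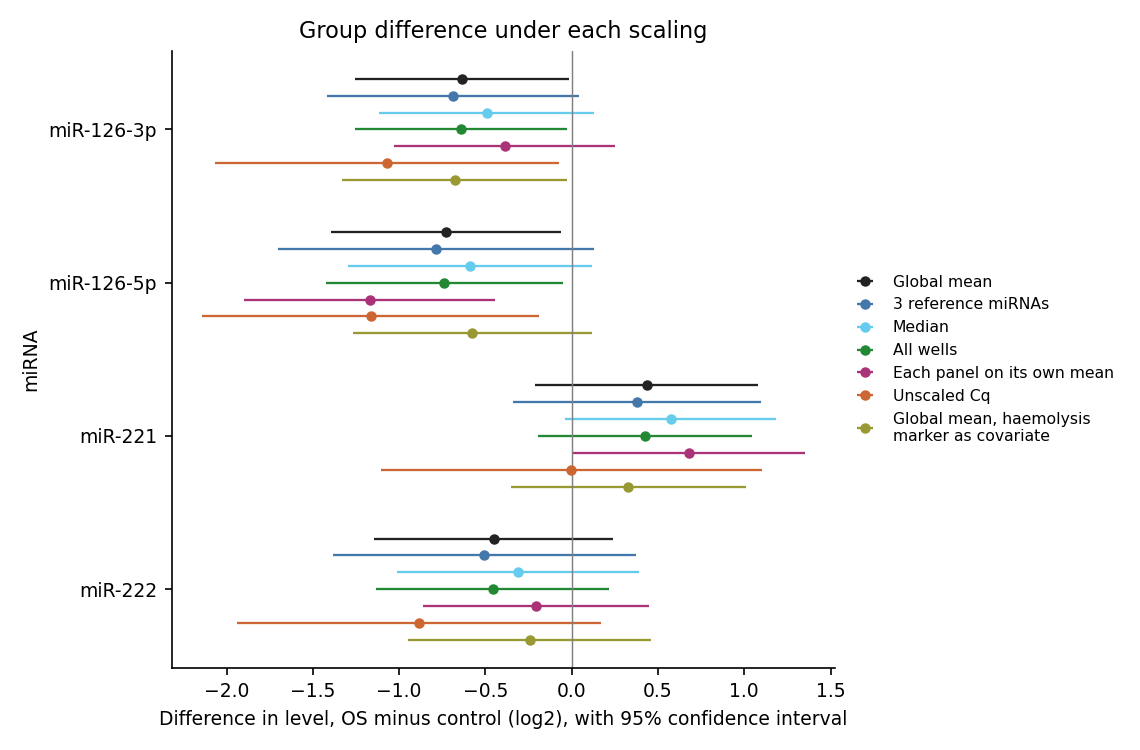
Difference in level between OS and control mice (log2, horizontal axis) for each member (vertical axis) under 6 scalings and in a fit that includes the haemolysis marker. Points are limma estimates and bars their 95% confidence intervals; miR-126-3p, miR-126-5p and miR-222 lie below 0 throughout, and miR-221 lies above 0 except with unscaled Cq, where it is at -0.00125.

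Differences between 2 miRNAs of the same mouse need no scaling, and these were compared for the 6 pairs of members. Over all 37950 pairs of the 276 miRNAs, 33.1% differed between the groups at an exact permutation p of 0.05, and 9.38% when adjusted over all pairs. A within-mouse difference is written as the log2 excess of the member named first over the member named second.

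No shift between the arms of miR-126 was detected. The 3p arm exceeded the 5p arm by 3.02 to 3.44 in controls, with a median of 3.38, and by 2.81 to 4.29 in OS, with a median of 3.42. The groups overlapped, although 4 mice with OS lay above and 2 below the control range. The mean excess was 3.31 ± 0.16 (SD, n = 6) and 3.41 ± 0.49 (SD, n = 8), a difference of 0.097 (95% confidence interval -0.36 to 0.56, exact permutation p = 0.672). Since the arms sit on different panels, 3 miRNAs with a well on each panel give the size of a panel effect. Their wells on panel II differed from panel I by -0.268 ± 0.0801 cycles in wild-type mice (SD, n = 6) against -0.314 ± 0.165 cycles with OS (SD, n = 8; exact permutation p = 0.546).

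Within the clustered pair the distance was smaller in OS at an unadjusted p. miR-221 lay below miR-222 in 13 of 14 mice, by 0.72 to 2.07 in controls, and OS replicate 10 had miR-221 above miR-222 by 1.38. The within-mouse difference was -1.34 ± 0.55 in wild-type mice (SD, n = 6) against -0.45 ± 0.81 with OS (SD, n = 8), with 5 of 8 mice with OS above every control. The shift was 0.89 towards miR-221 (95% confidence interval 0.04 to 1.73, exact permutation p = 0.0256, adjusted over all pairs p = 0.106). It was 0.74 without control replicate 3 (exact permutation p = 0.0746), 0.76 without control replicate 4 (exact permutation p = 0.0723) and 0.62 without OS replicate 10 (exact permutation p = 0.0315).

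Of the 6 pairs, miR-126-3p and miR-221 gave the smallest p. miR-126-3p exceeded miR-221 by 1.81 to 3.85 in controls, with a median of 2.31, and by 0.85 to 1.85 in OS, with a median of 1.51. Of the 8 mice with OS, 7 lay below every control, and OS replicate 18 at 1.85 lay just above the lowest control at 1.81. The shift was -1.07 on the log2 scale (95% confidence interval -1.74 to -0.39, exact permutation p = 0.000666, adjusted over all pairs p = 0.0239), or 2.10-fold. It held an exact permutation p from 0.000583 to 0.00622 in each of the 14 fits without 1 mouse. The 5p arm gave a like shift against miR-221, of -1.16 (exact permutation p = 0.0113, adjusted over all pairs p = 0.0720). Against miR-222 the shifts were -0.18 for miR-126-3p (95% confidence interval -0.98 to 0.62) and -0.28 for miR-126-5p (95% confidence interval -0.98 to 0.42). The pairs across miR-126 and miR-221 or miR-222 were added after their values were seen.

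**Figure D3:**
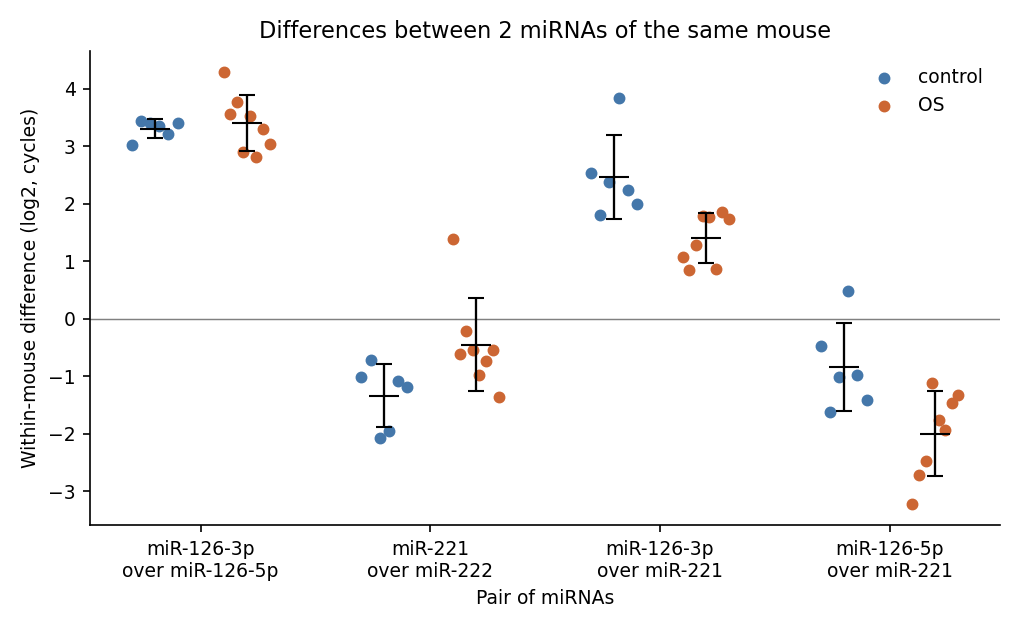
Within-mouse difference (log2, vertical axis) for 4 pairs of members (horizontal axis), positive where the member named first is more abundant. Points are mice and bars the mean ± SD; miR-126-3p over miR-221 is at 1.81 to 3.85 in controls and 0.85 to 1.85 in OS, while the arms of miR-126 overlap.

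Likeness of pattern was measured as the SD, over 14 mice, of the within-mouse difference between a member and each of the other 275 miRNAs measured in every mouse. A small SD means that the distance between the 2 miRNAs was steady from mouse to mouse, whatever the scaling. It does not show that they varied together, since 2 miRNAs that each vary little around the mean of the mouse also give a small SD. It describes these mice, both groups together, and carries no test. For comparison, the wells of the same miRNA on both panels differed with an SD of 0.126 cycles (miR-103), 0.215 cycles (miR-191) and 0.217 cycles (miR-423-3p).

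The most alike of the 275 to miR-126-3p was its own 5p arm, with an SD of 0.378 against a median of 0.966. Next came rno-miR-7a-1* (0.398), miR-151-5p (0.434) and both assays of miR-223, a miRNA of myeloid cells and platelets (0.439 for the rat assay and 0.483 for the mouse assay). For miR-126-5p, the 3p arm came after rno-miR-338 (0.339) and before miR-29a* (0.448), rno-miR-7a-1* (0.457) and miR-20a (0.489). Within groups, the SD between the arms was 0.390. The 5p arm was then at place 3 for the 3p arm, after miR-19b-1* (0.343) and let-7b (0.375), which are named for this order, and the 3p arm stayed at place 2 for the 5p arm.

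The members of the clustered pair were less alike than the arms of miR-126, though nearer to each other than the median miRNA. With an SD of 0.824, miR-222 came at place 87 in the list of miR-221, and miR-221 at place 97 in that of miR-222. The median SD was 1.03 in the list of miR-221 and 0.971 in that of miR-222. The spread includes OS replicate 10, where miR-221 exceeded miR-222 by 1.38. Within groups, where the group difference is taken out, the SD was 0.715 and the places were 78 and 74. The most alike to miR-222 was miR-93, with an SD of 0.163, within the range seen for wells of the same miRNA. miR-19b (0.242), miR-25 (0.305), miR-421 (0.308) and miR-20a (0.351) followed. miR-93 and miR-25 come from a cluster in an intron of Mcm7, and miR-20a from the miR-17 cluster, which also holds a gene for miR-19b. The most alike to miR-221 were rno-miR-345-5p (0.301), miR-324-3p (0.340), miR-130a (0.365), which is known to promote vessel growth, rno-miR-324-3p (0.391) and let-7f-1* (0.425). No miRNA was among the 5 most alike to both miR-221 and miR-222. Of these neighbors of the 4 members, miR-29a* was called in the group comparison (log2 difference -1.17, limma adjusted p = 0.0327).

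**Figure D4:**
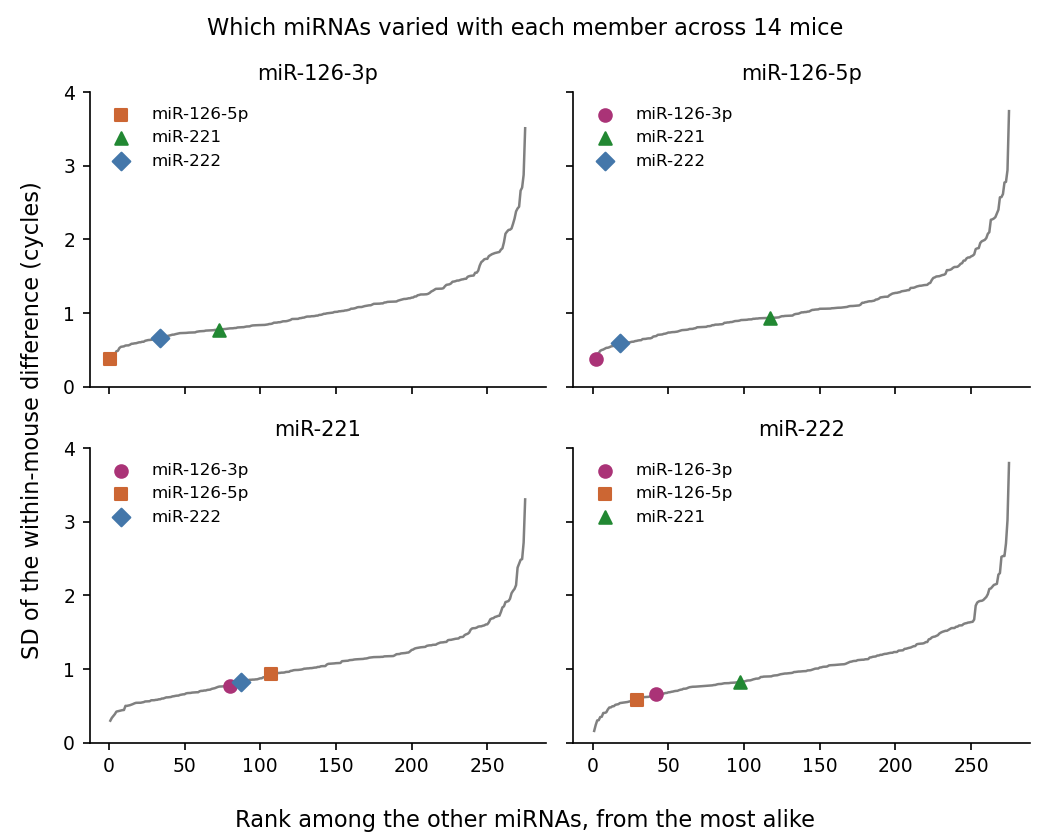
SD of the within-mouse difference (cycles, vertical axis) between each member and the 275 other miRNAs measured in every mouse, ordered from the most alike (horizontal axis, rank). The grey line holds all miRNAs and symbols mark the other members; the arms of miR-126 hold ranks 1 and 2 in each other's panels, and miR-221 and miR-222 hold ranks 87 and 97.

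Red blood cells that break on sampling add their miRNAs to plasma, and the Cq of miR-23a minus that of miR-451 was taken as a marker of it. The marker was 5.77 ± 1.43 in wild-type mice (SD, n = 6) against 4.19 ± 1.94 with OS (SD, n = 8; exact permutation p = 0.117), and was lowest in OS replicate 10, at 1.05. This is also the mouse with the lowest miR-222 and the highest miR-221. With the marker as a covariate, miR-126-3p differed by -0.68 (limma adjusted p = 0.279), miR-126-5p by -0.58, miR-221 by 0.33 and miR-222 by -0.24. The shift of miR-221 against miR-222 was then 0.57 (permutation p = 0.172), and that of miR-126-3p against miR-221 was -1.01 and kept its side of the threshold (permutation p = 0.00355).

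Other miRNAs of vessels and of blood cells were counted by lists, in which mouse and rat assays and both arms count separately, as a description. Of 45 assays of vessel miRNAs, members included, 1 was lower in OS, none was higher and 44 did not pass limma, with 9 at an unadjusted p of 0.05 and 1 passing the methods' t-test. Both the share called and the share at an unadjusted p lie below the 12.6% and 30.7% of all miRNAs. The lower one was let-7f, of the let-7 family (limma adjusted p = 0.00326 for a log2 difference of -2.96, with a standard error of 0.52, measured in 5 and 7 mice). Its mean normalized level was low, at -0.67 in controls and -3.63 in OS. With a Cq limit of 35, no assay of the vessel list was called. The median log2 difference of this list was -0.23, against -0.0027 over all 388. Next by p were miR-218 (-0.83), miR-132 (0.79), miR-130a (0.81) and miR-322* (1.27), which lay on both sides of 0 and did not pass (limma adjusted p from 0.121 to 0.131).

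Platelets carry miR-126, so their miRNAs were set beside it. None of 15 platelet assays passed limma or the methods' t-test after adjustment, with 3 and 4 at an unadjusted p of 0.05, and the median log2 difference was 0.01. The list holds both arms of miR-126, which are 2 of the 3 at an unadjusted limma p of 0.05, and 3 of 15 lies below the 30.7% of all miRNAs. The mean level of the 13 assays measured in every mouse ran from 2.94 to 3.84 in controls and from 2.85 to 3.55 in OS. After the arms of miR-126 and miR-21* (-0.91), the smallest p was that of miR-28* (0.88, limma adjusted p = 0.20). miR-223, which is listed for platelets and also for white blood cells, differed by -0.49 in its mouse assay (limma adjusted p = 0.242) and by -0.24 in its rat assay (limma adjusted p = 0.602).

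Of 9 assays listed for smooth muscle and pericytes, 4 are of miR-143 or miR-145, known from the vessel wall, and 5 of miR-1 or miR-133a, known chiefly from skeletal and heart muscle. None passed limma or the methods' t-test, and none had an unadjusted p under 0.05 by either. Their median log2 difference was -0.57, with 7 below 0 and 2 above, miR-133a (0.68) and miR-145 (0.27). The smallest p was that of miR-143 (-0.74, limma adjusted p = 0.227). The others of small p were rno-miR-133a* (-1.10), rno-miR-1 (-0.82) and rno-miR-143 (-0.57), with limma adjusted p from 0.270 to 0.324.

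Blood cell miRNAs were set beside the members as well. Of 11 red blood cell assays 4 were lower, miR-144 (-2.38), miR-16-1* (-1.68), miR-15a (-1.66) and miR-15b* (-1.49), none was higher and 7 did not pass limma, among them miR-15b (-1.02), miR-451 (-1.43), miR-16 (-0.77) and miR-25 (-0.52), against 12.6% called of all miRNAs, with a median log2 difference of -1.02. Of these assays 9 lay below 0 and 2 above, miR-486 (0.05) and miR-486* (0.04), from a miRNA of red blood cells, and miR-15a* was at -0.21. Their mean level ran from 4.44 to 6.05 in controls and from 3.21 to 5.07 in OS. Of 10 white blood cell assays 2 were lower, miR-142-3p (-3.57) and miR-146b (-1.29), against 12.6% called of all miRNAs. None was higher and 8 did not pass. Among the 8 were miR-142-5p (-1.18), the rat assay of miR-146b (-0.98), miR-342-3p (0.97) and miR-223 (-0.49). The rest of the 8 were the rat assay of miR-223 (-0.24), miR-155 (-0.16), miR-146a (0.08) and miR-150 (0.02). At an unadjusted limma p of 0.05 there were 5 of the 10, against 30.7% of all miRNAs. The median log2 difference of the list was -0.37, with 7 assays below 0 and 3 above. The mean level of the 10 assays ran from 2.60 to 3.18 in controls and from 1.67 to 2.89 in OS. Beyond the fits with the haemolysis marker, the part of blood cells in the levels of miR-126, miR-221 and miR-222 was not tested. The marker contains miR-451, which is on the red blood cell list, so the covariate adjusts that list for 1 of its own assays. The number of red blood cell assays called was 1 with the marker as a covariate and 1 without any 1 of control replicates 3, 13 and 14. It was 2 without any 1 of OS replicates 10, 11 and 12. The number of white blood cell assays called was 1 with the covariate and when any 1 of control replicates 2, 3, 4, 13 and 14 was left out. The same number was found without any 1 of OS replicates 10, 11, 12, 16, 18 and 19. Of the vessel list, 2 were called without OS replicate 15 and 5 without OS replicate 17.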

How the data were processed

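Plasma RNA of 6 control and 8 OS mice was measured on Exiqon mouse panels I and II, 768 wells per mouse. The authors deposited Cq values, a log2 scale, that were not normalized. The sources used here do not say if plates had been calibrated or outlying wells removed before deposit. The authors also deposited a table of their comparison with fold changes and p-values, from which only the names of 392 wells were used. A Cq has no count behind it, so the spread between mice, 1 sample each, sets the precision.

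Values above Cq 37 were treated as missing. A miRNA was dropped if 75% of the mice or more lacked it. Levels are relative to the global mean Cq of the mouse, for which missing values took the group mean or Cq 38. Wells of the same miRNA were averaged. The members have no missing value. Groups came from the sample titles and were compared by limma 3.58.1 in R 4.3.3 (lmFit, eBayes, two-sided, Benjamini-Hochberg over 388), without covariates. Single values were compared by exact permutation tests in Python 3.11.15 with pandas 2.3.3, and with a covariate by permuting residuals 100000 times. The code was tested on simulated data. Intervals of within-mouse differences are from least squares with equal variances. Sequences are from RefSeq, GRCm38.p6. Plots were drawn with matplotlib 3.10.9.

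The miRNAs named are the members, the 5 most alike to each, those past the threshold and the 4 with the smallest p in each of 5 lists, and the haemolysis marker. Others named are described where they appear. The members, the lists and the tests were chosen with earlier results of these data known. Alternatives were other scalings, Cq limits, missing values at Cq 38, no filter, the methods' t-test, the haemolysis marker in the fit, and fits without 1 mouse. Leaving out the mice with a marker over 7 (control replicates 3 and 13), a correction of the arms for the panel, and the 4 pairs across miR-126 and miR-221 or miR-222 were added after the data were seen.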

Additional observations from a re-analysis of the deposited data

Results flagged for a closer look

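Groups of values (members and pairs of members, in each group of mice) were searched for a mouse far from the rest. Of 20 such groups, 3 held one. Chance gives about 1 in 20 for independent groups, but these share members and mice, so the count cannot be read as an excess. The normalized level of miR-126-3p was 6.96 in control replicate 4, with the next control at 6.17. In the same mouse miR-126-3p exceeded miR-221 by 3.85 within the mouse, with the next control at 2.54. Without this mouse the group difference of miR-126-3p was -0.46 and that of the pair -0.79, which kept its side of the threshold. In OS replicate 10 miR-221 exceeded miR-222 by 1.38 within the mouse, whereas it lay below miR-222 in the other mice with OS.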

How the results depend on the processing

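The log2 differences of miR-126-3p, miR-126-5p and miR-222 kept their sign in each alternative. miR-126-5p passed with each panel on its own mean (-1.17), where members past the threshold numbered 1 in place of 0, and miR-221 reversed to -0.00125 with unscaled Cq. Without 1 mouse the differences ran from -0.70 to -0.46 for miR-126-3p, -0.84 to -0.57 for miR-126-5p, 0.32 to 0.52 for miR-221 and -0.58 to -0.30 for miR-222, and none passed. The exact permutation p of miR-126-3p stayed under 0.05 in 23 of 24 alternatives, the exception being each panel on its own mean (exact permutation p = 0.0912). That of miR-126-5p did so in 22 of 24, the exceptions being the 3 reference miRNAs (exact permutation p = 0.0809) and the median (exact permutation p = 0.0573). That of miR-221 did so in 6 of 24 and that of miR-222 in 0. Apart from the change of the mean when each panel was centred on its own, the cause of these moves was not tested.

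The arm difference of miR-126 reversed to -0.10 in the fit with the haemolysis marker and to -0.030 without OS replicate 10, against up to 0.18 without another mouse, and was 0.14 with the panel difference subtracted. miR-221 over miR-222 no longer passed in that fit (0.57) or without the mice with a marker over 7 (0.77), and ran from 0.62 to 1.02 without 1 mouse. The other pairs kept their sign and their side of the threshold. Cq limits and missing values left all pairs as they were, since no member was missing at either limit.

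The vessel list had 2 calls with each panel on its own mean, 0 with a Cq limit of 35 and 1 to 5 without 1 mouse. The platelet list had 2 with each panel on its own mean. miR-451, part of the haemolysis marker, is itself on the red blood cell list. The red blood cell list had 1 when scaled to the 3 reference miRNAs and with the marker in the fit, 2 by the methods' t-test, 0 without the mice with a marker over 7 and 1 to 5 without 1 mouse. The white blood cell list had 1 with these settings, with a Cq limit of 35, unscaled, scaled to the median and with panels centred separately, and 1 to 3 without 1 mouse. Over all 388 miRNAs the 49 calls became 21 unscaled, 17 with the marker in the fit, 24 by the methods' t-test, 20 without the mice with a marker over 7 and 20 to 73 without 1 mouse. No paired analysis was possible, because the controls were littermates by the methods but the labels used here do not give the litter of a mouse. The number of mice limits what could be seen.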
